A study of Mus musculus with 18 samples.

Results

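The respiratory chain of the inner mitochondrial membrane was followed here through the nuclear genes for its complexes I to IV. The members were the protein-coding mouse genes whose symbols start with Ndufa, Ndufb, Ndufc, Ndufs, Ndufv, Uqcr, Cox4i, Cox5, Cox6 or Cox7. Of complex II only the subunits Sdha to Sdhd were taken, without its assembly factors. This gave 73 of the 50600 genes in the table. By role, 7 were core subunits of complex I, 29 were its accessory subunits, 8 were complex I assembly factors, 4 made up complex II, 8 belonged to complex III and 17 to complex IV. The symbol rule brought in the Ndufaf assembly factors along with the subunits, and Ndufa4 and Ndufa4l2 were counted with complex IV, since the Ndufa4 protein is known as a subunit of that complex despite its name.

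The tumors were B16F10 mouse melanomas growing under the skin of the right flank of C57BL/6 mice, injected directly with a STING agonist, the cyclic dinucleotide CDN2, which the labels call CL656. CDN2 was given either free or loaded on extracellular vesicles (EVs) from HEK293 cells that overexpress PTGFRN, a product named exoCDN2. After 1 dose there were 5 groups, namely PBS, unloaded EVs, exoCDN2 at 0.1 µg of CDN2, free CDN2 at 20 µg and free CDN2 at 100 µg, and after 2 doses given 3 days apart there were 3 groups, namely PBS, exoCDN2 at 0.1 µg and free CDN2 at 20 µg. Each group held 2 tumors, taken 24 h after the last dose. All hosts were female C57BL/6 mice, 5 to 6 weeks old when purchased, and no allele or strain difference separated the groups. A further 2 tumors were labelled with free CDN2 at 2 doses without an amount and entered no comparison.

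Complex I takes electrons from NADH through its iron-sulfur clusters and passes them to ubiquinone, and complex II does the same from succinate as part of the citric acid cycle. Complex III hands the electrons to cytochrome c, and complex IV passes them to oxygen, while complexes I, III and IV pump the protons that drive ATP synthesis. Several complex IV subunits exist as a common and a restricted isoform: Cox6a2 and Cox7a1 are the heart and skeletal muscle forms, whereas Cox4i2 and Ndufa4l2 are known as oxygen-regulated counterparts of Cox4i1 and Ndufa4.

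Total expected counts per tumor ran from 21608895 to 65983630. Levels are given as CPM, the usual count scaled to a common library total, with TMM factors, and levels of different genes are compared only as CPM per kilobase of the principal transcript. Of the 73 members, 72 passed the filter on low counts, and Cox7b2 had 0 counts in every tumor, which allows up to 3 counts in a tumor for counting error alone. A member was called at an adjusted p under 0.05 in edgeR's quasi-likelihood test, with the Benjamini-Hochberg adjustment over all 16927 genes tested. The samples were whole tumors, so fewer cells of a type and less RNA per cell cannot be told apart, and with 2 tumors against 2 an exact two-sided permutation test of a single value cannot go below p = 0.333.

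In CPM per kilobase, averaged over the 16 tumors, the most abundant members were Cox4i1 at 849, Cox6a1 at 502, Ndufa4 at 493, Cox5b at 489 and the complex II iron-sulfur subunit Sdhb at 349. The restricted isoforms stood at the other end, with Ndufa4l2 at 7.46, Cox7a1 at 5.49, Cox6a2 at 4.21, Cox4i2 at 1.97 and Cox6b2, known as a testis isoform, at 0.249. Class medians of the same level were 202 for complex III, 199 for complex IV, 123 for complex II, 121 for the complex I accessory subunits, 85.2 for the complex I core subunits and 14.3 for the assembly factors. Among these nuclear genes of complex I, the core subunits and assembly factors thus had lower RNA medians than the accessory subunits. The ranges overlapped, at 56.2 to 172 for the core subunits and 13.3 to 227 for the accessory subunits. Subunits encoded by mitochondrial DNA are not members and do not enter these medians. The classes also differed in transcript length: the median was 659 bases for complex IV and 763 bases for the accessory subunits, against 1623 bases for the core subunits and 2066 bases for complex II. Among tested members, 40 had a principal transcript under 1000 bases and 32 had a longer transcript.

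The 250 bases upstream of the start were read for the 59 members that had a RefSeq promoter window. Letters known to be bound by regulators of respiratory genes were searched on both strands. Each gene was counted once, with a match in any of its windows. NRF1 letters (GCGCA, any base, then GCGC) stood in 10 of the 59 members, or 16.9%, against 4.21% of 26966 other genes, and ETS letters (CGGAAG) stood in 19, or 32.2%, against 15.3%. HIF letters (ACGTG) stood in 8 members, or 13.6% against 18.5%, ERR letters (AAGGTCA) in 3, or 5.08% against 4.7%, MEF2 letters (CTA, any 4 bases, then TAG) in 1, or 1.69% against 3.7%, and YY1 letters (AAGATGGCG) in 0 against 0.712%. E-box letters (CANNTG) stood in 36 members, or 61% against 69.3%, and they overlap ACGTG where the sequence reads CACGTG. The other genes were all further genes with a window, not matched to the members for gene type, expression or GC content. Whether the differences in share belong to respiratory genes was therefore not tested. A match describes letters in this window and is not a site shown to be used. The windows of 5 members, picked from those called in the comparisons, are printed 5′ to 3′ on the gene's strand (RefSeq, GRCm38.p6). Matches to the NRF1, ETS, YY1, HIF, ERR and MEF2 letters are in capitals. Ndufa3, Uqcr11 and Cox7a1 were among the members higher after 2 doses of free CDN2, and Ndufs8 and Ndufb2 were among the 4 lower after 2 doses of exoCDN2.
Ndufa3 (chr7:3617123-3617372, plus strand): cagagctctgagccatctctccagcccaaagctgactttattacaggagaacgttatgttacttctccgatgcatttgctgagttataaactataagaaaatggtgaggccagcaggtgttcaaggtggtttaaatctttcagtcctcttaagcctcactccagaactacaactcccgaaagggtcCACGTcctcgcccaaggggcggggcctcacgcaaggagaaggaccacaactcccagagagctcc
Uqcr11 (chr10:80406822-80407071, minus strand): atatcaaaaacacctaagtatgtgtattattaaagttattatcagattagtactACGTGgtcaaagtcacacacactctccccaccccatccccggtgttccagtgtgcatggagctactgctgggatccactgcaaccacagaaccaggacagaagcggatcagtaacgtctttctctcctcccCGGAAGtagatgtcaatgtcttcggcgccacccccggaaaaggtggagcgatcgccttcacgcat
Cox7a1 (chr7:30183921-30184170, plus strand): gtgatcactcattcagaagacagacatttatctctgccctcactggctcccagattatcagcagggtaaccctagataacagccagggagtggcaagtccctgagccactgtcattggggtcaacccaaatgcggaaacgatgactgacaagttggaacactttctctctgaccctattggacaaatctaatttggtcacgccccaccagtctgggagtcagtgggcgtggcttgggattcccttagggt
Ndufs8 (chr19:3912775-3913024, minus strand): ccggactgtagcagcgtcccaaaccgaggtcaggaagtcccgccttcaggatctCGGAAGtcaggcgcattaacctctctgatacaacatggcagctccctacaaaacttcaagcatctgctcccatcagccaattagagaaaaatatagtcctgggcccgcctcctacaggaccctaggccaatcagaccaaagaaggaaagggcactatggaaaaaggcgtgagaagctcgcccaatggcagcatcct
Ndufb2 (chr6:39592315-39592564, plus strand): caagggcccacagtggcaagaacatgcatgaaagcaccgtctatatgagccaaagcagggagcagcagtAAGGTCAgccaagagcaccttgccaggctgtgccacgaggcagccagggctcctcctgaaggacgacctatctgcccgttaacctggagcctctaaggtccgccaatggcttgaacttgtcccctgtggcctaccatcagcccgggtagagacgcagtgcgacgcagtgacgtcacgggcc

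Within these windows, Ndufa3 and Uqcr11 each held a match to the HIF letters, Uqcr11 and Ndufs8 a match to the ETS letters and Ndufb2 a match to the ERR letters. The window of Cox7a1 held none of the 6 capitalised motifs. Cox4i1, Cox4i2, Cox6a2, Ndufa4l2 and Ndufs1 were among the 14 members without a window.

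After 1 dose, the member genes passed the test in no comparison with PBS. With unloaded EVs the median member differed from PBS by 0.04 on the log2 scale, with 0 of 72 members called higher or lower against 0% of all genes in either direction, 1 member at an unadjusted p under 0.05 and 0 called by DESeq2. With exoCDN2 the median was -0.07, with 0 members called by edgeR against 2.6% of genes called higher and 0.662% called lower, 2 members at an unadjusted p under 0.05 and 0 called by DESeq2. With free CDN2 at 100 µg it was 0.03, with 0 called by edgeR against 2.2% and 0.798%, 3 members at an unadjusted p under 0.05 and 0 called by DESeq2.

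Free CDN2 at 20 µg gave higher member values after 1 dose, without a call by edgeR. The summed level of the members was 10793 and 11749 CPM in the 2 tumors, against 8503 and 8979 CPM in the PBS tumors and 8765 and 8823 CPM in the tumors given 100 µg. The median log2 difference from PBS was 0.34, with 68 of 72 members above 0, and for 63 members both treated tumors were above both PBS tumors, against 28.6% of all genes. In edgeR's quasi-likelihood test 0 members were called, against 2.85% of genes called higher and 1.09% called lower, with 35 members at an unadjusted p under 0.05, while DESeq2 called 8 higher. Medians by class were 0.45 for complex III, 0.36 for complex IV, 0.34 for the core and accessory subunits of complex I, 0.26 for complex II and 0.15 for the assembly factors. The smallest adjusted p belonged to Ndufa12, an accessory subunit, at 155 and 190 CPM against 109 and 115 CPM, a log2 difference of 0.62 ± 0.16 (SE) with an adjusted p of 0.0589 in edgeR's quasi-likelihood test. Cox5b, a structural subunit of complex IV, stood at 544 and 586 CPM against 396 and 410 CPM in PBS, and at 371 and 391 CPM with 100 µg. For both genes the 2 tumors given 20 µg were above every other 1-dose tumor. The difference between 20 and 100 µg was not tested. The tilt was larger for short transcripts, with a median of 0.37 for members under 1000 bases and 0.29 for longer ones. For other protein-coding genes in these 2 classes it was 0.21 and -0.01, although most other genes of the longer class were longer than most of its members. At 1000 to 1500 bases the median was 0.31 for members against 0.13 for other genes. At 1500 to 2000 bases it was 0.34 against 0.09.

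**Figure D1:**
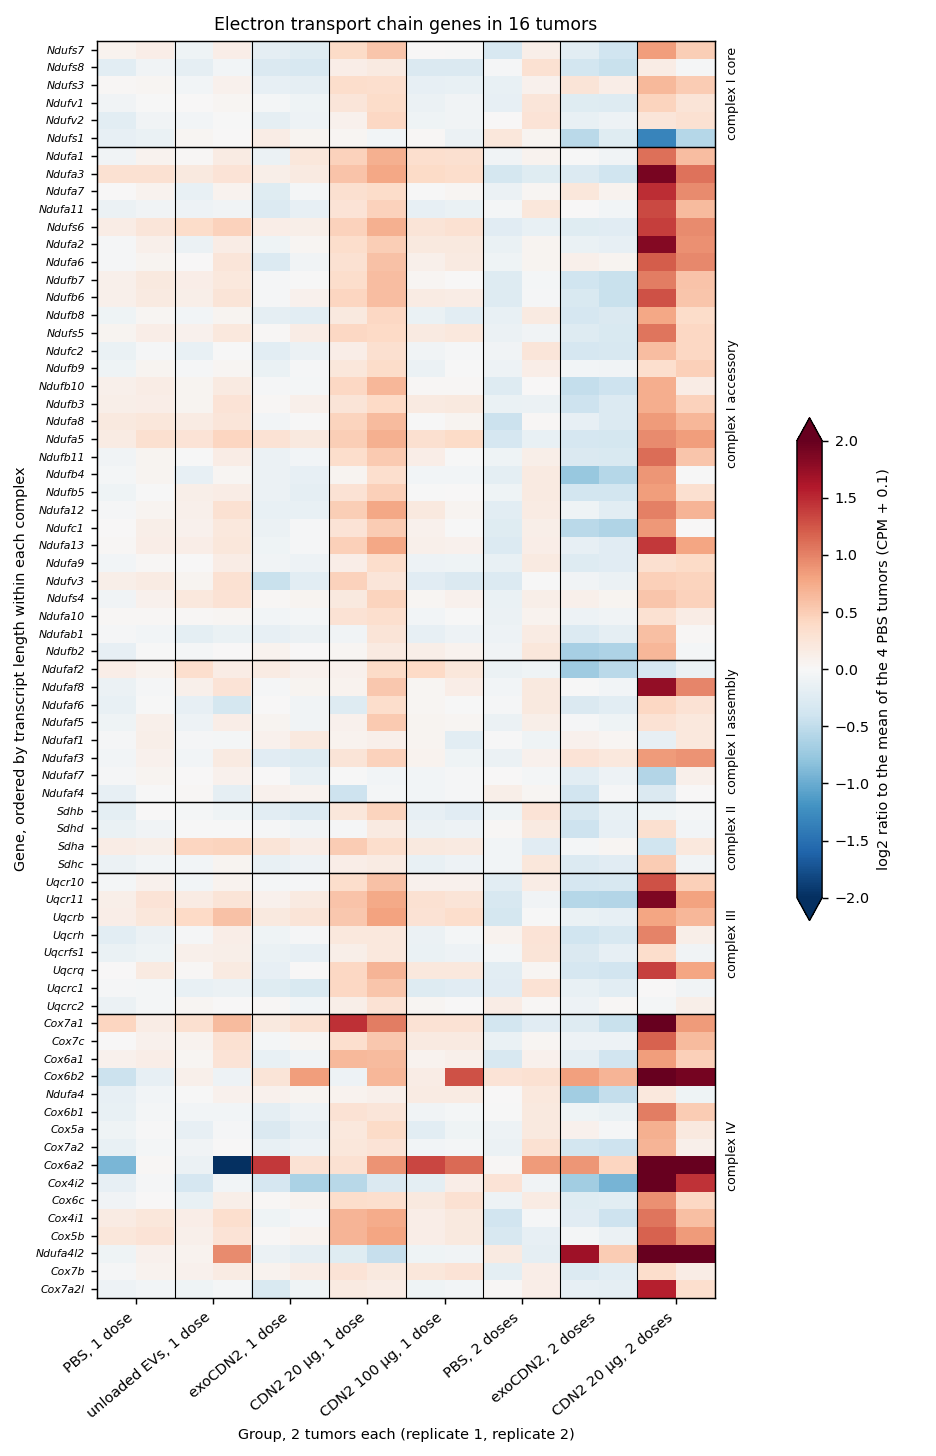
Colour shows each gene's log2 ratio in each of 16 tumors to the mean of the 4 PBS tumors (CPM plus 0.1), with genes in rows ordered by transcript length within each complex and tumors in columns, 2 per group. The pair given 2 doses of free CDN2 is red over most accessory, complex III and complex IV genes and blue at Ndufs1, with replicate 1 stronger than replicate 2, and the pair given 1 dose of 20 µg is red more weakly.

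A second dose of free CDN2 at 20 µg came with the widest differences. Of 72 members, 43 were higher than in PBS tumors after 2 doses and 1 was lower, against 27.1% of all genes called higher and 23.2% called lower, and the median log2 difference was 0.60. With the study's further requirement of a ratio over 2, 18 members were higher and 1 was lower, against 20% and 10.6% of all genes. The summed level was 14326 and 11114 CPM against 7832 and 9258 CPM in PBS tumors, and the tumors did not overlap for 50 members that were higher, against 34.4% of all genes. The calls were uneven over the complexes: 23 of 29 accessory subunits, 12 of 16 complex IV genes and 4 of 8 complex III genes were higher, compared with 2 of 7 core subunits, 2 of 8 assembly factors and 0 of 4 complex II genes. Class medians were 0.98 for complex IV, 0.85 for the accessory subunits, 0.67 for complex III, 0.20 for the core subunits, 0.17 for the assembly factors and 0.06 for complex II. Leaving out 1 tumor of the pair at a time gave 37 members higher without replicate 1 and 50 without replicate 2, and the count lower was 3 without that replicate 2 and 2 without replicate 1 of the PBS pair. Fitted on the 4 tumors of the comparison alone, 15 members were higher and 0 lower.

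Among the accessory subunits of complex I, which surround the catalytic core and support its assembly and stability, Ndufs6 was at 147 and 109 CPM against 48.0 and 50.7 CPM in PBS tumors. Its log2 fold change was 1.37 ± 0.15 (SE), with an adjusted p of 5.34e-05 in edgeR's quasi-likelihood test. Ndufa5 was at 174 and 160 CPM against 71.5 and 81.2 CPM, and its log2 fold change was 1.13 ± 0.13 (adjusted p = 7.15e-05, edgeR). For both genes the 2 treated tumors were above all 14 other tumors in the comparisons. Ndufa3 was at 177 and 101 CPM against 37.1 and 39.9 CPM, a log2 fold change of 1.85 ± 0.21 (adjusted p = 7.14e-05, edgeR). Ndufa7 was at 161 and 111 CPM against 53.3 and 59.2 CPM, a log2 fold change of 1.28 ± 0.17. All 29 accessory subunits had a fold change above 0, including the 6 that were not called.

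The core subunits, which carry the NADH site, the iron-sulfur clusters and the quinone site, did not move together. Ndufs1, the largest of them and the carrier of several clusters, was at 98.0 and 166 CPM against 289 and 256 CPM in PBS tumors, and it fell by 1.04 on the log2 scale (SE 0.20, adjusted p = 0.00145, edgeR). Both treated tumors were below all the others, replicate 1 by more, and without replicate 1 the log2 difference was -0.73. Ndufs7, which holds the last cluster before ubiquinone, rose by a log2 value of 0.76 ± 0.17 (adjusted p = 0.00328, edgeR), from 52.9 and 72.2 to 118 and 93.7 CPM. Ndufs3 rose by 0.60 ± 0.12 (adjusted p = 0.00164, edgeR), from 84.5 and 99.3 to 146 and 133 CPM. Ndufv1, Ndufv2 and Ndufs8 were not called, with log2 differences of 0.30, 0.13 and -0.08. Among assembly factors, Ndufaf3 was at 23.4 and 24.1 CPM against 11.9 and 13.8 CPM (log2 0.89 ± 0.15, adjusted p = 0.00065, edgeR), and Ndufaf8 at 61.0 and 35.5 against 17.2 and 20.6 CPM (log2 1.35 ± 0.23, adjusted p = 0.000718, edgeR).

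Complex II gave no call: Sdha, the flavoprotein, Sdhb, and the membrane anchors Sdhc and Sdhd had log2 differences of 0.07, -0.17, 0.16 and 0.05. Sdhb was at 386 and 399 CPM, inside or next to the PBS range of 388 and 494 CPM. In complex III, Uqcrq, Uqcr11, Uqcrb and Uqcr10, which are small subunits, rose. Uqcrq stood at 669 and 448 CPM against 223 and 266 CPM (log2 1.19 ± 0.18, adjusted p = 0.000375, edgeR). Uqcr11 stood at 306 and 145 CPM against 66.7 and 79.8 CPM (log2 1.62 ± 0.26, adjusted p = 0.000453, edgeR), and without replicate 1 of the treated pair its log2 fold change was 0.97. Uqcrb and Uqcr10 were called at 0.90 and 0.95, and the hinge protein Uqcrh, another small subunit, was not called (log2 0.45, adjusted p = 0.0952, edgeR). The core proteins Uqcrc1 and Uqcrc2 and the Rieske iron-sulfur protein Uqcrfs1 were not called, at -0.08, -0.04 and 0.04.

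In complex IV the common subunits Cox4i1, Cox5b, Cox6a1, Cox6b1, Cox6c and Cox7c were all called higher. Cox5b had the smallest adjusted p of all members, at 768 and 613 CPM against 273 and 303 CPM, a log2 fold change of 1.26 ± 0.13 (adjusted p = 4.68e-05, edgeR). Cox4i1, the large regulatory subunit, was at 1148 and 825 CPM against 420 and 536 CPM, a log2 fold change of 1.05 ± 0.17 (adjusted p = 0.000513, edgeR). In both cases each treated tumor exceeded each PBS tumor, although for Cox4i1 replicate 2 stood below the 874 and 913 CPM found after 1 dose of 20 µg. Cox6a1, Cox6b1 and Cox6c rose by log2 values of 0.76, 0.69 and 0.66. Cox5a, Cox7b, Cox7a2 and Ndufa4 were not called, with log2 differences of 0.42, 0.27, 0.31 and -0.04. Cox7a2l, which takes part in joining complexes III and IV, was at 381 and 163 CPM against 132 and 142 CPM, with a log2 fold change of 0.99 ± 0.27 (adjusted p = 0.0107, edgeR), and most of that difference lay in replicate 1.

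The restricted isoforms had the widest fold changes and some of the lowest levels. Ndufa4l2 was at 60.6 and 13.9 CPM against 2.47 and 1.90 CPM in PBS tumors, a log2 fold change of 4.08 ± 0.62 (adjusted p = 0.000358, edgeR), while its counterpart Ndufa4 stood at 348 and 284 against 301 and 349 CPM. Cox4i2 was at 13.9 and 1.91 CPM against 0.784 and 0.597 CPM, a log2 fold change of 3.50 ± 0.69 (adjusted p = 0.00161, edgeR). Without replicate 1, whose values were the highest for both, the log2 fold change was 2.65 for Ndufa4l2 and 1.45 for Cox4i2, without replicate 2 it was 4.73 and 4.27, and both were called either way. Cox6a2 was at 19.3 and 13.1 CPM against 0.639 and 1.22 CPM, a log2 fold change of 4.12 ± 0.70 (adjusted p = 0.000654, edgeR). Cox7a1 was at 7.11 and 2.52 CPM against 1.03 and 1.15 CPM, a log2 fold change of 2.12 ± 0.41 (adjusted p = 0.00144, edgeR), or 1.20 without replicate 1. For Ndufa4l2, Cox4i2 and Cox6a2 both treated tumors were above all 14 others, whereas for Cox7a1 replicate 2 was below the 3.90 and 2.85 CPM seen after 1 dose of 20 µg. Cox6b2 had 15 and 15 counts against 3 and 3, was called (adjusted p = 0.00837, edgeR), and lost the call without replicate 1 of the treated pair (adjusted p = 0.0537, edgeR) and without either PBS tumor (0.0588 and 0.0503).

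**Figure D2:**
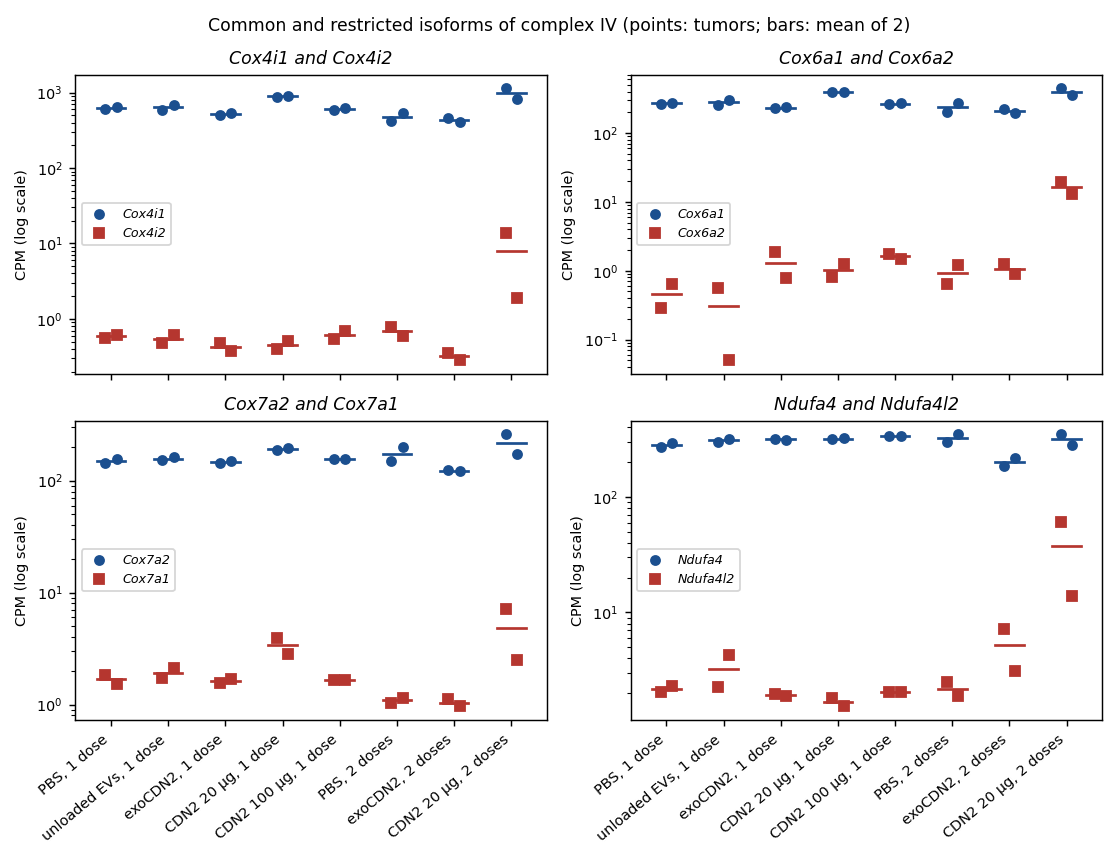
Each point is the CPM (log axis) of 1 tumor, with a bar at the mean of 2, for a common complex IV gene (blue circles) and its restricted counterpart (red squares) in 8 groups. After 2 doses of free CDN2, Cox4i2 (13.9 and 1.91 CPM), Cox6a2 (19.3 and 13.1 CPM) and Ndufa4l2 (60.6 and 13.9 CPM) lie above all other groups, while Ndufa4 is lowest after 2 doses of exoCDN2 (185 and 216 CPM).

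Other tissue markers moved in the same tumors. After 2 doses of free CDN2 the 16 skeletal muscle markers summed to 6203 and 3238 CPM, against 257 and 450 CPM in PBS tumors and 9.44 to 804 CPM in the other groups, with 12 of 16 called higher and 0 at or under 3 counts. The 10 melanocyte markers summed to 9541 and 18423 CPM, against 30130 and 32338 CPM, with 9 of 10 lower. The 10 neutrophil markers summed to 1006 and 231 CPM, against 3.69 and 2.39 CPM, with 10 of 10 higher, and the 10 fibroblast and endothelial markers to 1898 and 962 CPM, against 481 and 439 CPM, with 3 higher and 1 lower. Over the 4 tumors of this comparison Cox6a2 had the same order as the muscle markers. That order was not particular to it, since Cox4i1, Cox5b and Ndufa3 had it too, whereas Cox4i2 and Ndufa4l2 did not. The part of these cell types in the member values was not tested. The pair itself was uneven: 27.9% of genes lay more than 2-fold apart between its tumors, against 5.06 to 12.1% in the other groups, and replicate 1 had the smallest library of all.

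Transcript length went along with the size of the change after 2 doses of free CDN2. Of the 40 members under 1000 bases, 34 were higher, with a median log2 fold change of 0.93, and for the 862 other protein-coding genes of that length the median was 0.88, with 61.4% called higher. Of the 32 longer members, 9 were higher and 1 was lower, with a median of 0.26, against -0.09 for 13557 other genes, of which 25.2% were called higher and 27.0% lower. In the median, short members were therefore close to other short genes, while the share called higher was larger among the members. Most longer members were shorter than most other genes of their class, so that contrast is not at like length. At 1000 to 1500 bases the median was 0.30 for 16 members against 0.52 for other genes. At 1500 to 2000 bases it was 0.20 for 9 members against 0.25. It was 0.07 for 3 members against -0.04 at 2000 to 3000 bases, and 0.21 for 4 members against -0.31 at 3000 to 5000 bases. These comparisons of medians were not tested. The length classes rest on the principal transcript. By the median length of a gene's transcripts, the 4 longest members stood at 2413 (Ndufb2), 2152.5 (Ndufaf4), 984 (Ndufab1) and 815 bases (Sdhc). The Spearman correlation of fold change with length was -0.61 across the 72 members and -0.35 across other genes, a description of genes from the same tumors. Tumor by tumor, the median log2 ratio to the PBS tumors of the short members was 1.17 and 0.65, against 1.07 and 0.63 for other short genes, and that of the longer members was 0.33 and 0.16, against -0.15 and -0.06.

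**Figure D3:**
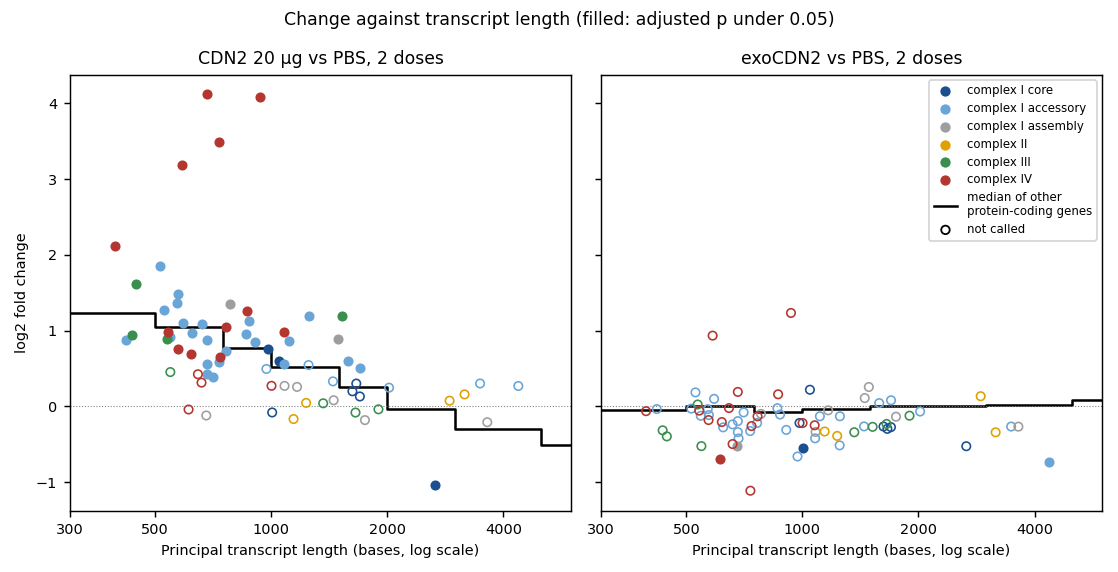
Each point is a member, placed by principal transcript length (bases, log axis) and its log2 fold change after 2 doses against PBS, filled when called, coloured by complex, with a black line for the median of other protein-coding genes in each length class. With free CDN2 (left) members and line fall together from short to long transcripts and the restricted complex IV isoforms stand above, including Cox6b2, whose fold rests on 15 counts a tumor, whereas with exoCDN2 (right) the line is flat near 0 and 59 of 72 members are below 0.

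To set members against genes of like length, a smooth curve of each tumor's deviation on length was added to the model as an offset, with each tumor's mean offset removed so that the scaling between tumors was kept. This centred form was chosen after seeing the data, and it was run with 4 lengths: the median transcript length, that length with GC content, the union of exons and the principal transcript. After 2 doses of free CDN2 it gave 32, 30, 25 and 18 members higher and 6, 6, 9 and 13 lower, with member medians of 0.23, 0.25, 0.14 and 0.00. Across all genes, 25.7%, 26.4%, 26.2% and 25.2% were higher and 21.3%, 22.8%, 18.6% and 19.8% were lower under the same offsets. Under the principal transcript offset the member median was thus level with PBS, and calls went both ways. By class, that offset left 8 accessory subunits higher and 1 lower, 6 complex IV genes higher and 4 lower, 2 complex III genes higher and 3 lower, 2 assembly factors higher and 1 lower, 0 core subunits higher and 2 lower, and 0 complex II genes higher and 2 lower.

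The members called higher without an offset and under all 4 centred offsets numbered 16. They were Ndufa2, Ndufa3, Ndufa5, Ndufa7, Ndufa13 and Ndufs6 of complex I, its assembly factors Ndufaf3 and Ndufaf8, Uqcr11 and Uqcrq of complex III, and Cox4i2, Cox5b, Cox6a2, Cox6b2, Cox7a1 and Ndufa4l2 of complex IV. Ndufs1 was lower in all 5 fits. Ndufa4, Ndufs8 and Sdhb were lower in all 4 offset fits, although without an offset none of these 3 was called. Under the offsets the log2 fold change ranged from 3.30 to 3.72 for Ndufa4l2, from 2.58 to 3.08 for Cox4i2, from 3.26 to 3.77 for Cox6a2 and from 0.99 to 1.46 for Cox7a1. The ranges were 0.88 to 1.20 for Ndufa3, 0.57 to 0.98 for Uqcr11 and 0.55 to 0.88 for Cox5b, and Ndufs1 ranged from -1.37 to -0.63.

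**Figure D4:**
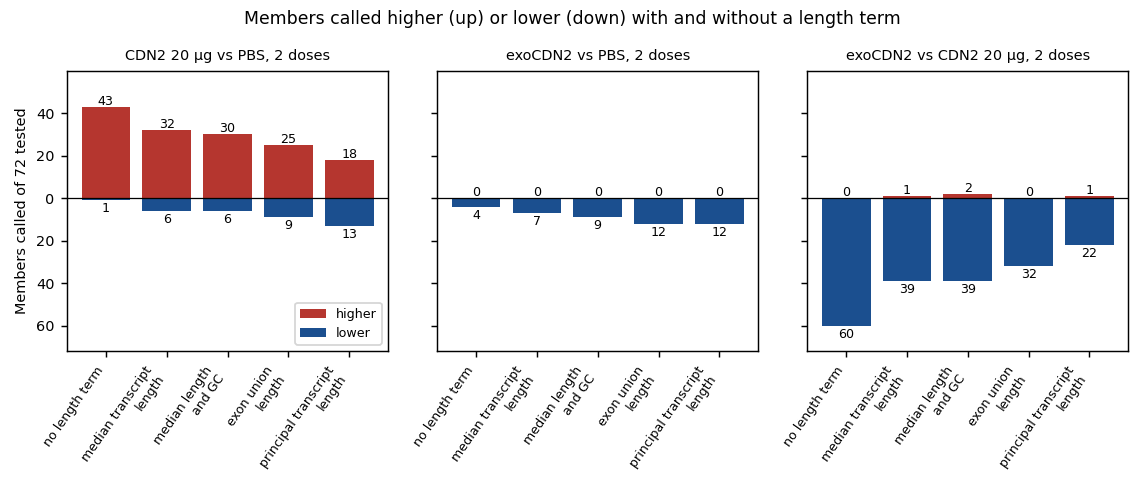
Bars count the members called higher (red, up) and lower (blue, down) of 72 tested in 3 comparisons at 2 doses, without a length term and with 4 centred length offsets. With free CDN2 the calls go from 43 higher and 1 lower to 18 higher and 13 lower, and with exoCDN2 from 4 to 12 lower.

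After 2 doses of exoCDN2 most members were below the PBS tumors, and 13 of 72 were above 0 on the log2 scale. The summed level was 7322 and 7334 CPM against 7832 and 9258 CPM, the median log2 difference was -0.22, and 59 of 72 members were below 0. In edgeR's quasi-likelihood test 0 members were higher and 4 were lower, against 10.9% and 7.04% of all genes, with 16 at an unadjusted p under 0.05 and 7 called lower by DESeq2. For 41 members both treated tumors were below both PBS tumors and for 9 they were above, against 29.4% and 30.3% of all genes. These tumors were compared with the same PBS tumors as those given free CDN2. Class medians ran from -0.34 for complex II, -0.29 for complex III and -0.27 for the core subunits to -0.16 for complex IV, -0.13 for the accessory subunits and -0.12 for the assembly factors.

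Ndufa4, the complex IV subunit, was at 185 and 216 CPM against 301 and 349 CPM, and it fell by 0.69 on the log2 scale (SE 0.13, adjusted p = 0.00404, edgeR). Both tumors lay below all 14 others, in which Ndufa4 ran from 270 to 349 CPM. Ndufs8, a core subunit that carries iron-sulfur clusters, was at 46.8 and 44.3 CPM against 59.6 and 74.1 CPM, with a log2 fold change of -0.55 ± 0.13 (adjusted p = 0.0132, edgeR). Ndufb2, an accessory subunit of the membrane arm, was at 36.4 and 37.3 CPM against 54.9 and 67.2 CPM, with a log2 fold change of -0.73 ± 0.19 (adjusted p = 0.0224, edgeR). Ndufaf2, an assembly factor, was at 11.8 and 13.4 CPM against 17.9 and 18.5 CPM, with a log2 fold change of -0.53 ± 0.15 (adjusted p = 0.0324, edgeR). In each of these genes the groups did not overlap. Ndufs1 stood at 169 and 209 CPM (log2 -0.53, adjusted p = 0.093, edgeR), Cox4i2 at 0.354 and 0.284 CPM (log2 -1.11, adjusted p = 0.311, edgeR) and Ndufa4l2 at 7.22 and 3.11 CPM (log2 1.23, adjusted p = 0.165, edgeR), and none of these 3 was called. Without 1 tumor the number lower was 0 (exoCDN2 replicate 1), 1 (exoCDN2 replicate 2), 10 (PBS replicate 1) or 1 (PBS replicate 2), and Ndufa4 lost its call only without exoCDN2 replicate 1 (adjusted p = 0.0673, edgeR). Ndufs8 and Ndufb2 kept theirs only without PBS replicate 1, and Ndufaf2 lost its call whichever tumor was left out (adjusted p from 0.0596 to 0.283, edgeR).

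With exoCDN2 the Spearman correlation of fold change with length was -0.14 across the members and 0.04 across other genes. The median was -0.16 for members under 1000 bases and -0.27 for longer ones, against -0.03 and 0.02 for other protein-coding genes. With the 4 centred offsets 7, 9, 12 and 12 members were lower and 0 higher, against 8.07%, 9.33%, 8.01% and 8.5% of all genes called lower. Ndufa4, Ndufb2 and Ndufs8 were called without an offset and under all 4, and Cox7a2, Ndufb4, Ndufc2 and Sdhd were called under all 4 offsets only. In these tumors the 10 T and NK cell markers summed to 73.0 and 50.8 CPM, against 3.20 and 1.64 CPM in PBS tumors, with 9 of 10 higher, and the melanocyte markers to 22733 and 24196 CPM, with 2 of 10 lower. Their part in the member values was not tested.

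The 2 forms of CDN2 were then compared directly, at amounts of CDN2 that differ. After 1 dose, exoCDN2 tumors had a median member log2 difference from free CDN2 at 20 µg of -0.41, with 66 of 72 below 0, and for 60 members both exoCDN2 tumors were lower, against 29.9% of all genes. In edgeR's quasi-likelihood test 5 members were lower and 0 higher, against 0.815% and 0.248% of all genes, with 41 at an unadjusted p under 0.05. Among them were Cox5b (log2 -0.68, adjusted p = 0.0433, edgeR), Uqcrc1 (-0.76, 0.045), Ndufa12 (-0.80, 0.0467) and Ndufv3 (-0.68, 0.0467). Uqcrc1, a core protein of complex III, was at 228 and 219 CPM with exoCDN2 and at 360 and 396 CPM with free CDN2. All 5 calls were lost whichever of the 4 tumors was left out, and other scaling factors gave 0, while DESeq2 called 18 lower.

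After 2 doses, 60 of 72 members were lower with exoCDN2 than with free CDN2 and 0 were higher, against 19.8% and 17.6% of all genes, and the median was -0.92. With a ratio over 2 as well, 28 were lower and 0 higher, against 12% and 7.34% of all genes. The groups did not overlap for 66 members that were lower, against 31% of genes. These calls took in 29 of 29 accessory subunits, 15 of 16 complex IV genes, 6 of 7 core subunits, 5 of 8 complex III genes, 3 of 8 assembly factors and 2 of 4 complex II genes, with class medians from -1.07 for complex IV to -0.30 for complex II. Uqcr11 was at 56.0 and 55.3 CPM with exoCDN2 against 306 and 145 CPM (log2 -2.02, adjusted p = 0.00113, edgeR), and Ndufa5 at 71.1 and 70.5 against 174 and 160 CPM (log2 -1.24, adjusted p = 0.000992, edgeR). Ndufa4 was lower here too (log2 -0.65, adjusted p = 0.00487, edgeR), although it was not called between free CDN2 and PBS. Cox4i2, Cox6a2, Ndufa4l2 and Cox7a1 had log2 differences of -4.61, -3.93, -2.85 and -2.18, and without replicate 1 of free CDN2 those of Cox4i2 and Uqcr11 were -2.58 and -1.39. Ndufs1 was at 169 and 209 CPM against 98.0 and 166 CPM and was not called (log2 0.52, adjusted p = 0.0603, edgeR). Fitted on the 4 tumors of the comparison alone, 0 members were called lower. The free CDN2 tumors of this comparison are those that differed from PBS above.

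The counts fell when length entered the model. Of 40 members under 1000 bases 38 were lower, with a median of -1.05 against -0.94 for other short genes, of which 61.4% were lower. Of 32 longer members 22 were lower, with a median of -0.47 against 0.12 for other long genes, of which 17.0% were lower. Most of those long genes were longer than most of these members. At 1000 to 1500 bases the median was -0.54 for 16 members against -0.51 for other genes. At 1500 to 2000 bases it was -0.43 for 9 members against -0.25. It was 0.06 for 3 members against 0.03 at 2000 to 3000 bases, and -0.53 for 4 members against 0.32 at 3000 to 5000 bases. Of those 4, placed by principal transcript, Ndufab1 and Sdhc had median transcript lengths of 984 and 815 bases. Under the 4 centred offsets 39, 39, 32 and 22 members were lower and 1, 2, 0 and 1 higher, against 16%, 16.6%, 17.1% and 14% of all genes lower and 12.1%, 14.5%, 9.42% and 8% higher. In all 4 of these fits and without an offset, 20 members were lower. Without exoCDN2 replicate 2 the count lower was 39, and without replicate 2 of free CDN2 3 members were higher.

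Whether the effect of free CDN2 at 20 µg against PBS differed between 2 doses and 1 dose was tested as an interaction. The effect was larger at 2 doses for 11 members and smaller for 2, against 13.1% and 8.85% of all genes, with a median of 0.27. The 11 held 6 accessory subunits, 1 complex III gene (Uqcr11) and 4 complex IV genes, namely Ndufa4l2, Cox4i2, Cox6a2 and Cox5b, and the 2 were Ndufs1 and Sdhb. For Ndufa4l2, at 1.83 and 1.54 CPM after 1 dose and 60.6 and 13.9 CPM after 2, the difference between effects was 4.45 ± 0.84 on the log2 scale (adjusted p = 0.00562, edgeR). Without replicate 1 of 2-dose free CDN2 it was 3.01, and without replicate 2 it was 5.09. For Ndufs1 it was -1.18 ± 0.28 (adjusted p = 0.0143, edgeR), with 251 and 237 CPM after 1 dose, and the call was lost without replicate 1 of 1-dose free CDN2 (adjusted p = 0.0519, edgeR) or either 1-dose PBS tumor (0.0524 and 0.0565). Ndufa4l2, Cox4i2 and Ndufa3 stayed higher, and Ndufs1 and Sdhb lower, under all 4 centred offsets. Without 1 tumor the count higher was 3 (replicate 1 of 1-dose free CDN2 or replicate 2 of 1-dose PBS), 7 (replicate 1 of 2-dose free CDN2, replicate 1 of 1-dose PBS or either 2-dose PBS tumor) or 28 (replicate 2 of 2-dose free CDN2). The count lower was 0 (replicate 1 of 1-dose free CDN2 or either 1-dose PBS tumor), 1 (replicate 2 of 1-dose free CDN2, replicate 1 of 2-dose free CDN2 or replicate 2 of 2-dose PBS), 4 (replicate 1 of 2-dose PBS) or 6 (replicate 2 of 2-dose free CDN2).

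For exoCDN2 the same interaction called 0 members higher and 1 lower, against 5.44% and 2.42% of all genes, with a median of -0.15. The gene was Ndufa4, at 320 and 313 CPM after 1 dose and 185 and 216 CPM after 2, with a difference between effects of -0.87 ± 0.19 on the log2 scale (adjusted p = 0.016, edgeR). The call was lost without either 1-dose exoCDN2 tumor, without either 1-dose PBS tumor and without replicate 1 of 2-dose exoCDN2. Between the PBS tumors themselves, 2 doses against 1 dose, 0 members were called by edgeR in either direction, against 0.0532% of all genes higher and 1.1% lower, with 7 at an unadjusted p under 0.05, 2 called lower by DESeq2 and a median of -0.01. The lowest adjusted p there were those of Ndufa5 (log2 -0.49, adjusted p = 0.116, edgeR) and Cox5b (log2 -0.49, adjusted p = 0.129, edgeR), which were at 71.5 and 81.2 and at 273 and 303 CPM after 2 doses of PBS, below the 102 and 113 and the 396 and 410 CPM after 1 dose.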

How the data were processed

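Whole-tumor mRNA libraries were sequenced, aligned by the authors to GRCm38 (mm10 in the submitters' processing notes) with the OSA aligner in OmicSoft ArraySuite 10.1 and quantified with RSEM on Ensembl gene models. The deposited values are expected counts per gene for 18 tumors, fractional where RSEM splits shared reads, as it did for Cox6c, Cox7c, Ndufb4, Ndufb6 and Uqcrc2 in all 18, whose levels are less certain. Depth was 21608895 to 65983630 expected counts a tumor.

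Counts were rounded, and the 16 tumors with a labelled group were fitted in edgeR 4.0.16 (R 4.3.3) with 8 groups of 2, TMM scaling, filterByExpr (minimum count 10, minimum total 15) and the quasi-likelihood test, after tests on simulated data. Benjamini-Hochberg adjustment ran over 16927 genes. The labels say only that replicates are separate tumors. The spread behind each p-value and SE was estimated over all 8 groups together, so it is not that of the pairs compared. For the 2-dose free CDN2 pair, whose tumors lay furthest apart, it can be too small. DESeq2 1.42.0, other scaling and filters, length offsets (mgcv 1.9.3, 8 basis functions, GENCODE M21), blocks and leaving out each tumor were alternatives. RefSeq promoter windows (GRCm38.p6) were used for 59 members whose start matched.

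The members and gene lists were chosen with earlier results of these data known. Named members were up to 4 called in each direction per complex and comparison, by smallest p, plus complex I core subunits, Sdha to Sdhd, complex III core proteins, Cox5a, Cox5b and the isoform pairs, and up to 4 genes per other list. Genes outside this rule were named after their values were seen, where a count needed its members. Values of 1 member, which counts in every total, are not reported here.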

Additional observations from a re-analysis of the deposited data

Results flagged for a closer look

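For 13 members the effect of free CDN2 at 20 µg against PBS differed between 2 doses and 1 dose by an interaction test in edgeR with Benjamini-Hochberg adjustment. These were 11 of 72 higher and 2 lower, against 13.1% and 8.85% of all genes, and leaving out 1 tumor at a time gave 3 to 28 higher and 0 to 6 lower. The log2 effect was larger at 2 doses by 4.445 for Ndufa4l2, 3.873 for Cox4i2, 2.988 for Cox6a2, 1.475 for Ndufa3, 1.145 for Uqcr11, 1.097 for Ndufa2, 0.9735 for Ndufs6, 0.9717 for Ndufa7, 0.7758 for Cox5b, 0.7669 for Ndufa5 and 0.6673 for Ndufa6. It was smaller at 2 doses for Ndufs1 (-1.182) and Sdhb (-0.5992), and in the tumors themselves Sdhb was at 482 and 559 CPM after 1 dose of free CDN2 against 386 and 399 CPM after 2. For exoCDN2 the only member with such a difference was Ndufa4, at -0.8702.

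A tumor whose label gives 2 doses of free CDN2 without an amount stood apart, although it entered no comparison. In its replicate 2, 10 members lay more than 2-fold above the highest PBS tumor: Cox6c, Cox7a2, Cox7b, Cox7c, Ndufa1, Ndufa6, Ndufb4, Ndufs4, Uqcrb and Uqcrh. The share of all genes tested that lay as far above was 2.1%, and other short genes in this tumor had a median log2 ratio to PBS tumors of 0.63.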

How the results depend on the processing

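These counts cover 18 settings other than leaving out tumors, together with the fits that left out a tumor. Of 58 pairs of a named member and a comparison, 47 never changed direction and 5 kept the same side of the threshold throughout. Counting error was widest for Cox6b2, Cox4i2 and Cox6a2, at 3 to 55 counts in each 2-dose PBS tumor. Unless stated, the cause of a change was not tested.

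Counts of members called moved as follows. For exoCDN2 against PBS after 1 dose, no filter on low counts gave 1 higher, and a model with only the groups compared gave 2 higher and 8 lower. For free CDN2 at 20 µg after 1 dose, 0 became 8 higher with DESeq2, 15 with the PBS tumors pooled, 5 with only the groups compared and 1 without the filter. For free CDN2 at 100 µg, no filter gave 1 higher, and only the groups compared gave 5 higher and 4 lower. For exoCDN2 against PBS after 2 doses, DESeq2 gave 7 lower, no filter 1 higher, only the groups compared 2 lower and a ratio over 2 gave 0 lower. For free CDN2 after 2 doses, only the groups compared gave 15 higher and 0 lower, and a ratio over 2 gave 18 higher. For exoCDN2 against free CDN2 after 1 dose, 5 lower became 18 with DESeq2, 10 without the filter, 21 with only the groups compared, and 0 with RLE factors, upper-quartile factors or a ratio over 2. After 2 doses, no filter gave 1 higher, a ratio over 2 gave 28 lower and only the groups compared, with 2 residual degrees of freedom, gave 0 lower. PBS at 2 doses against 1 dose gave 2 lower with DESeq2. The free CDN2 interaction gave 17 higher with DESeq2, 1 lower without the filter, with RLE or with upper-quartile factors, 2 higher and 0 lower with only the groups compared, and 6 higher and 1 lower with a ratio over 2. The exoCDN2 interaction gave 3 lower with DESeq2, 1 higher without the filter, 4 lower with only the groups compared and 0 lower with a ratio over 2.

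Leaving out each tumor in turn gave 0 to 10 members lower for exoCDN2 against PBS after 2 doses, 34 to 50 higher and 1 to 3 lower for free CDN2 after 2 doses, 0 lower throughout for exoCDN2 against free CDN2 after 1 dose, 0 to 3 higher and 39 to 61 lower for the same after 2 doses, 3 to 28 higher and 0 to 6 lower for the free CDN2 interaction, and 0 to 1 lower for the exoCDN2 interaction.

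Centred offsets, in the order median length, median length with GC, exon union and principal transcript, were chosen after seeing the data, as were the principal transcript length and the crossed pairing. For free CDN2 after 1 dose they gave 1, 5, 2 and 1 higher, for exoCDN2 against free CDN2 after 1 dose 2, 1, 6 and 3 lower, for the free CDN2 interaction 8, 8, 4 and 3 higher and 5, 6, 9 and 11 lower, for PBS at 2 doses against 1 dose 1, 3, 0 and 0 lower, and for the exoCDN2 interaction 2 lower with length and GC. After 2 doses they gave 32, 30, 25 and 18 higher and 6, 6, 9 and 13 lower for free CDN2, 7, 9, 12 and 12 lower for exoCDN2, and 39, 39, 32 and 22 lower with 1, 2, 0 and 1 higher for exoCDN2 against free CDN2.

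Without centring the same offsets also shift the median of all genes, by -0.32, -0.32, -0.28 and -0.32 on the log2 scale for free CDN2 after 2 doses, -0.25, -0.24, -0.25 and -0.25 for exoCDN2 after 2 doses, -0.35, -0.34, -0.31 and -0.35 for the free CDN2 interaction, -0.20, -0.19, -0.19 and -0.20 for the exoCDN2 interaction and 0.12, 0.10, 0.11 and 0.11 for PBS at 2 doses against 1 dose. They gave 16, 16, 8 and 5 higher and 18, 19, 25 and 33 lower for free CDN2, 35, 35, 43 and 42 lower for exoCDN2, 31, 31, 25 and 16 lower with 1, 2, 1 and 1 higher for exoCDN2 against free CDN2, 3, 3, 2 and 2 higher and 13, 19, 22 and 29 lower for the free CDN2 interaction, and 4, 5, 7 and 6 lower for the exoCDN2 interaction. After 1 dose they gave 5 higher for free CDN2 with length and GC, and 1 lower with length, 1 with length and GC and 0 with the principal transcript for exoCDN2 against free CDN2.

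Directions reversed only under length offsets. For free CDN2 against PBS after 2 doses, Uqcr10 was at -0.019 with length, -0.12 with length and GC, -0.30 with the exon union, -0.42 with the principal transcript, -0.095 with the centred principal transcript and -0.015 with the block and length, Uqcrb was at -0.20, -0.33 and -0.0014 with the exon union, principal and centred principal offsets, and Cox4i1 at -0.047 with the principal offset. For exoCDN2 against free CDN2 after 2 doses, Sdhd was at 0.22, 0.14, 0.16 and 0.079 with the exon union, principal, centred union and centred principal offsets, Sdhc at 0.046 with length and GC, Ndufaf6 at 0.028 with the exon union and 0.028 with the principal offset, and Uqcrb at 0.11 and 0.054 with the principal and centred principal offsets. For the free CDN2 interaction, Ndufa6 was at -0.19, -0.27, -0.076, -0.26 and -0.18 with length, length and GC, exon union, principal, and block with length, Cox5b at -0.028 and -0.090 and Ndufa5 at -0.13 and -0.082 with the exon union and principal offsets, and Ndufa7 at -0.0088 with the principal offset.

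The mean correlation of same-numbered deviations over 28 pairs of groups was 0.00673, so replicate numbers did not pair the tumors across groups in general. Single values ran from -0.176 to 0.307, and the highest was that between free CDN2 and exoCDN2 after 2 doses. With the replicate block, 44 members were higher and 1 lower for free CDN2 after 2 doses, 4 were lower for exoCDN2, 59 were lower between them, 0 were lower for exoCDN2 against free CDN2 after 1 dose, and the free CDN2 interaction had 9 higher and 1 lower. The replicate block with the length offset gave 15 higher and 16 lower, 31 lower, 29 lower with 1 higher, 0 lower, and 3 higher with 12 lower in the same order. In free CDN2 and PBS after 2 doses the correlation was -0.134, and with that pairing crossed 46 members were higher and 1 lower, 62 were lower for exoCDN2 against free CDN2, and the interaction had 15 higher and 2 lower.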

Other observations

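Other mitochondrial genes were read from lists that hold no member. After 2 doses of free CDN2 at 20 µg, 10 of 18 ATP synthase genes were higher than in PBS tumors and 0 lower, with a median log2 difference of 0.54, led by the small subunits Atp5e (1.36, at 325 and 201 CPM against 96.7 and 109 CPM) and Usmg5 (1.27). Of 34 assembly factors and carriers of the chain, 11 were higher and 2 lower (median 0.10), among them Uqcc3 (1.54), a complex III assembly factor, and Cox17 (1.46), the copper chaperone of complex IV. Ribosomal protein genes were higher in 78 of 88 (median 1.03) and mitochondrial ribosome genes in 45 of 78 (median 0.50). Citric acid cycle genes went the other way, with 0 of 17 higher and 7 lower (median -0.27), including Ogdh (-1.27), at 140 and 140 CPM against 264 and 414 CPM. Of 14 regulators of mitochondrial biogenesis 1 was higher and 7 were lower (median -0.52), among them Polrmt (-1.34), the mitochondrial RNA polymerase, and Myc (-1.30). The same background applies as for the members, 27.1% of all genes higher and 23.2% lower. These lists were not matched for transcript length, which went along with the change in this comparison. Other protein-coding genes of 500 to 750 bases had a median of 1.05, with 63.3% higher. Those of 3000 to 5000 bases had a median of -0.31, with 35.1% lower. The part of length in the differences between the lists was not tested.

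Genes encoded by mitochondrial DNA divided, with 3 of 13 higher and 5 lower. The ones higher were mt-Atp6 (2.82), mt-Co2 (1.31) and mt-Co3 (0.90), and those lower included mt-Nd4 (-0.72) and mt-Nd1 (-0.67). mt-Nd1 was at 2389 and 3627 CPM against 4294 and 5258 CPM. The share of counts from these genes was 1.62% and 4.67% in the 2 treated tumors, on either side of the 3.64% and 3.79% in PBS tumors.

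After 2 doses of exoCDN2, 5 of 17 citric acid cycle genes were lower than in PBS tumors and 0 higher (median -0.27), against 7.04% and 10.9% of all genes. Idh2, the mitochondrial NADP-dependent isocitrate dehydrogenase, was at 173 and 202 CPM against 341 and 459 CPM, a log2 fold change of -1.09 with an adjusted p of 0.000648 in edgeR's quasi-likelihood test, and Fh1, Ogdh and Suclg2 followed at -0.66, -0.66 and -0.53. All 17 genes had a log2 difference below 0. Of 18 ATP synthase genes 1, Atp5a1 (-0.72), was lower, with all 18 below 0, and of 13 mitochondrially encoded genes 1, mt-Nd1 (-0.76), was lower.

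Among markers of other cells, macrophage and monocyte genes were higher in 7 of 10 and lower in 1 after 2 doses of free CDN2, and higher in 5 of 10 after 2 doses of exoCDN2, T and NK cell genes in 7 of 10 after free CDN2, and neutrophil genes in 6 of 10 after exoCDN2. Keratinocyte markers were called in 0 of 10 and 1 of 10, both counts for higher, and adipocyte markers in 0 of 8 after free CDN2 and in 1 higher and 1 lower of 8 after exoCDN2.

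The 2 tumors labelled with 2 doses of free CDN2 and no amount differed from each other. Summed member levels were 7257 CPM in replicate 1 and 13989 CPM in replicate 2, and the median log2 ratio to 2-dose PBS tumors was -0.26 and 0.64. In replicate 1, 1 member was above and 49 were below all 4 PBS tumors, whereas in replicate 2, 65 were above and 0 below, against 17.1% of all genes above and 19.6% below in replicate 1 and 30.5% above and 28.6% below in replicate 2. Mitochondrially encoded genes made up 3.25% and 7.43% of counts.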
